A study of Mus musculus with 7 samples.

Results

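Metallothioneins are small cysteine-rich proteins that bind zinc and copper in the cytosol. The transcription factor MTF1 senses free zinc and drives metallothionein genes through metal response elements in their promoters. Zinc enters the cytosol through the SLC39 (ZIP) transporters and leaves it, into organelles or out of the cell, through the SLC30 (ZnT) transporters. Metallothionein genes are also known targets of glucocorticoids and of interleukin 6, and Slc39a14, whose protein carries zinc, iron and manganese, is a known target of interleukin 6. In skeletal muscle, both metallothioneins and Slc39a14 are known to rise in wasting states.

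The genes described here are 10: the metallothioneins Mt1, Mt2 and Mt3, the zinc sensor Mtf1, the importers Slc39a14, Slc39a1 and Slc39a10, and the exporters Slc30a1, Slc30a2 and Slc30a4. They were chosen by the measured difference between AR113Q and WT on these arrays, or with it known, so their genotype differences are given as a description, with no test, and where one of them is said to be called this only says on which side of the limits it falls. All 13 non-control probes of these genes, of 39429 on the array, were looked up by gene name. Of these, 11 probes passed the filter on dim signal, among 20990 probes in all, and every one of the 10 genes kept at least 1 probe.

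The study asked which genes change in muscle of a mouse model of spinal and bulbar muscular atrophy before motor dysfunction starts. Total RNA from the quadriceps of C57BL/6 mice aged 3 months was hybridised to 1-colour arrays, 1 array per mouse, 4 labelled WT and 3 labelled AR113Q. AR113Q mice carry a humanised knock-in allele with an expanded CAG repeat that encodes polyglutamine. The sample labels call the controls WT, whereas the study text describes controls with a humanised allele and a short repeat, and which of these the WT arrays hold was not settled. The study states that male mice were used, whereas the labels of these arrays give no sex.

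The arrays sat on 5 slides that were scanned on 1 date, and slide 2 was the only one to carry mice of both genotypes, WT replicate 2 beside AR113Q replicate 1. Each array had 47.6 to 55.8% of its probes well above background, and none of the spots was marked as saturated. The 9 myofibre markers had a median difference of -0.06 and none was called, with 2 at an unadjusted p under 0.05 in limma, while Ckm and Acta1 were called lower after 75th percentile scaling. Myh7, the myosin heavy chain of slow fibres, set the mice apart regardless of genotype, at 4.95, 12.56, 11.89 and 6.66 in WT and 6.66, 6.22 and 13.59 in AR113Q. Myh2, the myosin heavy chain of fast oxidative fibres, was highest in the same 3 mice.

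The promoters of 9 of the 10 genes were read from RefSeq on GRCm38.p6, 250 bases before to 50 after the annotated start, and searched on both strands for the core of the metal response element, TGCACNC or TGCGCNC. Slc39a14 has no entry in the promoter table. The promoters of Mt1 and Mt2 are printed because both genes had large differences, and that of Slc30a1, the zinc exporter of the plasma membrane and a known MTF1 target, because it did not. Capitals mark the cores. Each run is on the plus strand, 5′ to 3′, and stops 30 bases after the start.
Mt1, chr8:94178839-94179118: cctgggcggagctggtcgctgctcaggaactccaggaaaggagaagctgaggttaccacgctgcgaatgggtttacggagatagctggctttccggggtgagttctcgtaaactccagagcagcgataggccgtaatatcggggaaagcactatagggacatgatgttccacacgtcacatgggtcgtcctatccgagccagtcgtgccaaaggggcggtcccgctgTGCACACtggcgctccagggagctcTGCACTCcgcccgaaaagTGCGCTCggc
Mt2, chr8:94172368-94172647: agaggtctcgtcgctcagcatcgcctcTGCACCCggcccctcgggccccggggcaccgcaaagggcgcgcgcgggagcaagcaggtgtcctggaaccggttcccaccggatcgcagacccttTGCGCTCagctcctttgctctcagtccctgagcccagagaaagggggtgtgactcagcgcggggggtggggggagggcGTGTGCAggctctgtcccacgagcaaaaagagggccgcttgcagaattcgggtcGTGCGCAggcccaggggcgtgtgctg
Slc30a1, chr1:191906531-191906810: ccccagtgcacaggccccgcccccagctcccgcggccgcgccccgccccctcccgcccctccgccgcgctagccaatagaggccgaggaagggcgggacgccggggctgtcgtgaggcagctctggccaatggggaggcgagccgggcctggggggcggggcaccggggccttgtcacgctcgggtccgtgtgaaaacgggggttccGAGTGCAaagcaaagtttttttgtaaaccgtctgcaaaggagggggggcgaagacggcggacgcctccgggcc
The Mt1 promoter held 3 cores, all in the sense direction, at -23, 2 and 20 bases from the start used. The Mt2 promoter held 4, in the sense direction at -223 and -128 and antisense at -50 and 4. The Slc30a1 promoter held 2 antisense cores, at -43 and, beyond the printed run, at 30. RefSeq places the first bases of Mt1 and Slc30a1 at 94178883 and 191906697, inside the printed runs and upstream of the starts used. Distances and counts of cores for these genes therefore hold only for these windows. Slc30a4 held 3, Slc30a2 held 2 and Mt3 held 1, whereas Mtf1, Slc39a1 and both annotated promoters of Slc39a10 had none in this window. Among all 32851 promoters, 25.7% held at least 1 core, 7.11% at least 2, 1.97% at least 3 and 0.517% at least 4. A match of these letters does not show that MTF1 binds there.

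**Figure D1:**
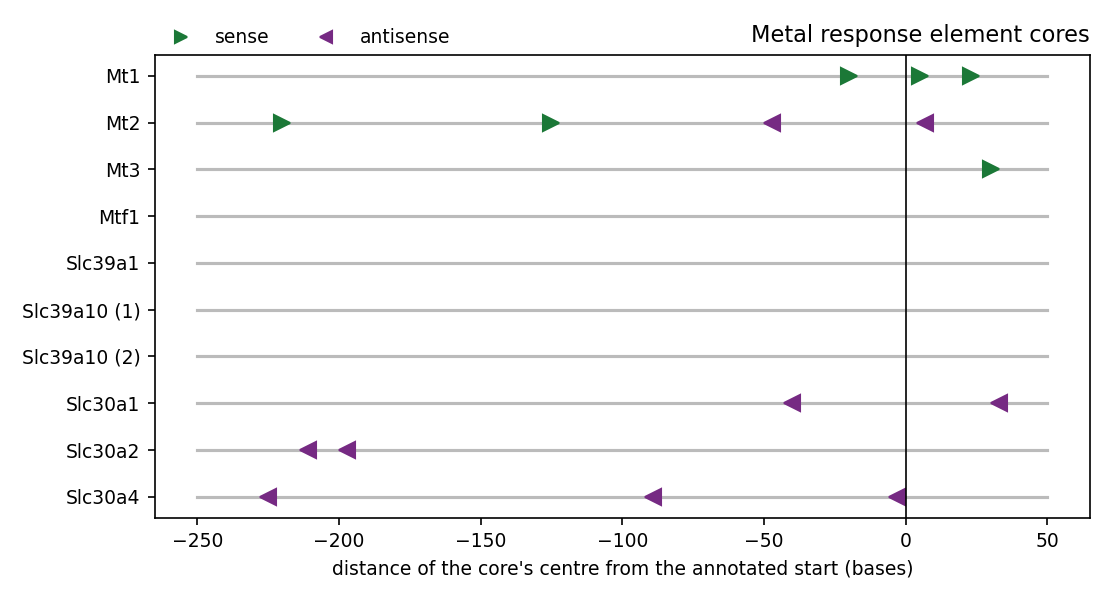
Positions of the metal response element cores in the promoters of the member genes, in bases from the annotated start (vertical line), with one row per promoter and triangles pointing right for sense and left for antisense matches. Mt1 has 3 cores within 30 bases of the start used, which lies downstream of the first base of the gene in RefSeq. Mt2 has 4 spread over the window.

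Of the 11 kept member probes, 4 were called, that is, had a limma adjusted p of at most 0.05 over all kept probes and a log2 difference of at least 1, and all 4 were higher in AR113Q. They belong to Mt1 (both probes), Mt2 and Slc39a14. Over all kept probes, 24.8% were called, 12.2% higher and 12.6% lower, and since the genes were chosen with this difference known nothing is read from the comparison of the shares. The groups did not overlap for 5 of the 11 member probes and for 49.6% of all kept probes. The median log2 difference was 0.17 over the 11 member probes and 0.01 over all kept probes. Of the member probes, 7 were higher in AR113Q, and of all kept probes 50.8% were. The level of one probe cannot be set against that of another, so each gene is compared only with itself.

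**Figure D2:**
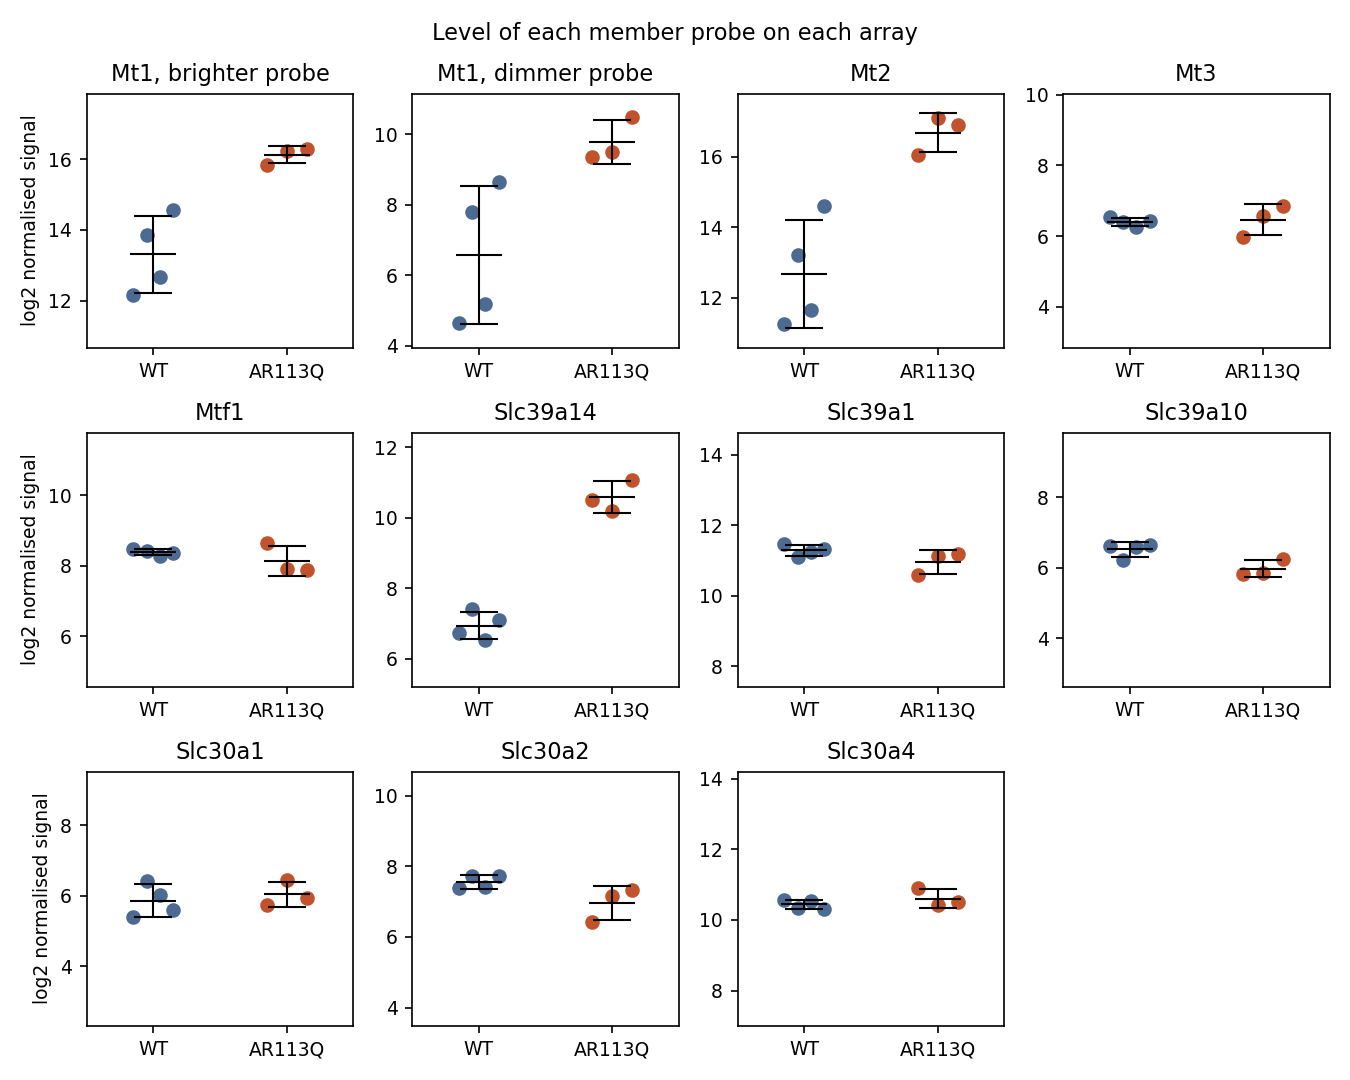
Log2 normalised signal of the 11 kept member probes, one panel per probe with an axis of the same span, points for the 4 WT and 3 AR113Q arrays, and bars for the mean and SD. Both Mt1 probes, Mt2 and Slc39a14 lie higher in every AR113Q mouse than in any WT mouse, whereas the other genes differ by less than 1 on the log2 scale.

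Mt1 and Mt2, the metallothioneins found in nearly all tissues, lie side by side on chromosome 8. The Mt2 probe (mm9 chr8:96697371-96697430) read 11.27, 13.22, 11.66 and 14.61 in the WT mice and 16.06, 17.09 and 16.89 in the AR113Q mice, in log2 normalised signal. Every AR113Q mouse was above every WT mouse, by at least 1.45. The Mt2 means were 12.69 ± 1.53 (SD, n = 4) and 16.68 ± 0.54 (SD, n = 3), a difference of 3.99 (SE 0.75), or 15.9-fold. Before normalisation, the processed intensity of Mt2 ran from 1600 to 23000 in WT and from 66700 to 144000 in AR113Q.

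The brighter Mt1 probe (mm9 chr8:96704165-96704224) read 12.15, 13.85, 12.67 and 14.56 in WT and 15.85, 16.25 and 16.30 in AR113Q. These groups were apart by 1.28 at the nearest values, and the 3 AR113Q mice lay close together. The means of the brighter Mt1 probe were 13.31 ± 1.10 (SD, n = 4) and 16.13 ± 0.25 (SD, n = 3), which is 2.82 higher in AR113Q (SE 0.53), or 7.08-fold.

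The dimmer Mt1 probe (mm9 chr8:96703844-96703903) lies upstream of the brighter one and is assigned to a predicted transcript of the gene. It read 4.64, 7.80, 5.18 and 8.64 in WT and 9.34, 9.48 and 10.49 in AR113Q. The gap between its groups was 0.70, and the difference was 3.20 (SE 0.94), or 9.21-fold. It was 1.80 in the authors' values, 2.07 after normexp correction and 2.17 from mean spot intensity. This probe was called in 12 of 19 alternative analyses, against 18 for the brighter Mt1 probe, Mt2 and Slc39a14, and without WT replicate 3 or any one of the AR113Q mice it was not called (differences of 2.74, 3.42, 3.35 and 2.84).

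Mt3, the metallothionein best known from the brain, read 6.53, 6.39, 6.25 and 6.43 in WT and 5.98, 6.56 and 6.84 in AR113Q. The AR113Q values lay on both sides of the WT values, with a difference of 0.06 (SE 0.22). Mt4, which is known from stratified epithelium and is not among the 10 genes, was well above background on 2 of 7 arrays and was not tested.

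The WT mice varied widely in the metallothioneins. The SD among WT arrays was 1.53 for Mt2, 1.10 for the brighter and 1.95 for the dimmer Mt1 probe, against a median of 0.21 over all kept probes. Only 0.343%, 1.49% and 0.124% of kept probes, respectively, had a larger WT SD. Among the AR113Q mice, 19.7% of kept probes had a larger SD than Mt2, 63.6% than the brighter Mt1 probe and 13.8% than the dimmer one.

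On all 3 of these probes the WT mice fell in one order, with WT replicate 1 lowest, then replicates 3 and 2, and replicate 4 highest. This order was found in 3.49% of all kept probes with a value on every WT array, and in 27 of the 617 kept probes whose WT values spanned at least 2 on the log2 scale. WT replicates 3 and 4 were on one slide, and Mt2 differed between them by 11.66 against 14.61. Of the other kept member probes, Slc30a2 had this order, though its WT values spanned only 0.36, and the remaining ones, Slc39a14 included, did not. Among the other genes looked up, 2 of 8 in the IL6-STAT3 list had it, Stat3 and Lcn2. So did Srxn1, of 7 in the NRF2 list, and the endothelial marker Tie1, of 6. None of 21 iron and manganese, 10 copper and 8 glucocorticoid-induced genes had it, and none of the other cell type markers. Nothing is read from these small counts. These orders were looked for after the values were seen.

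**Figure D3:**
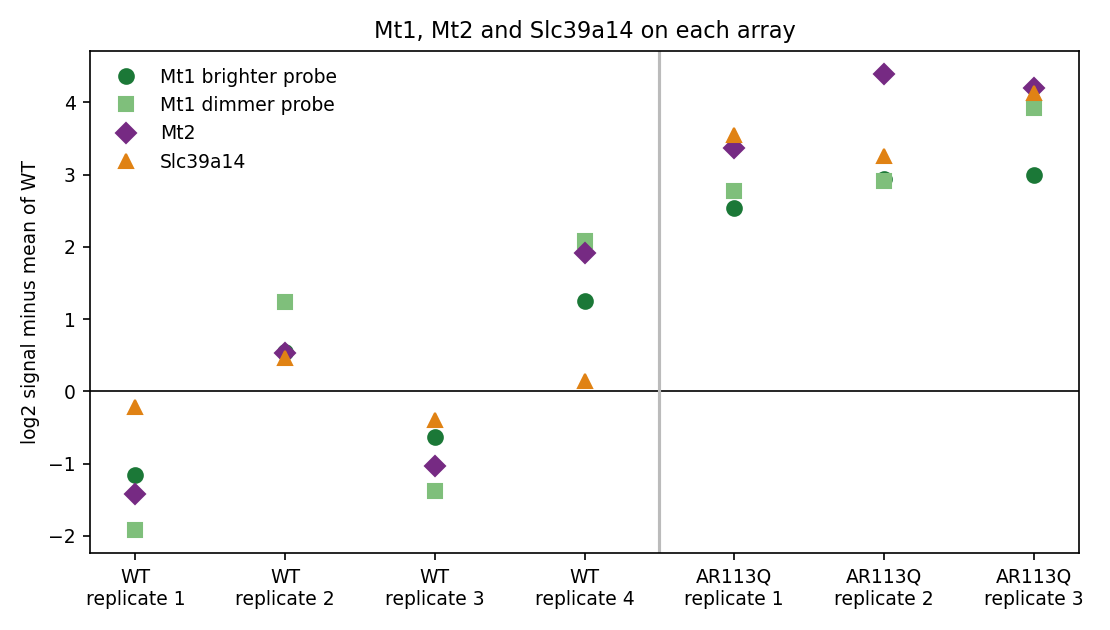
Log2 signal of both Mt1 probes, Mt2 and Slc39a14 on each of the 7 arrays, minus that probe's mean over the WT arrays. The Mt1 and Mt2 points of WT replicates 2 and 4 lie above 0 and those of replicates 1 and 3 below it, and all AR113Q points lie above 2.

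Mtf1, the zinc-sensing factor, was close in the 2 genotypes. Its one kept probe read 8.49, 8.41, 8.27 and 8.37 in WT and 8.64, 7.92 and 7.87 in AR113Q. AR113Q replicate 1 lay above all WT mice and the other AR113Q mice below them, with a difference of -0.24 (SE 0.21). The other Mtf1 probes were well above background on 0 arrays, at means of 2.35 in WT and 1.93 in AR113Q for one and 2.25 and 3.18 for the other, so they carry no level.

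Slc39a14 (ZIP14) was the importer with the largest difference. Its probe (mm9 chr14:70703394-70703453, minus strand) read 6.73, 7.41, 6.55 and 7.09 in WT and 10.49, 10.20 and 11.08 in AR113Q. The groups were 2.79 apart at their nearest values, the widest gap among the members. The Slc39a14 means were 6.94 ± 0.38 (SD, n = 4) and 10.59 ± 0.45 (SD, n = 3), a difference of 3.65 (SE 0.28), or 12.5-fold. Its processed intensity before normalisation ran from 76.1 to 177 in WT and from 1620 to 2660 in AR113Q.

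The Slc39a14 difference was 2.66 in the authors' normalised values and 2.88 after normexp correction and 3.02 without background subtraction, against 3.65 here.

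Slc39a1 (ZIP1), an importer of the plasma membrane found in most tissues, read 11.47, 11.11, 11.25 and 11.33 in WT and 10.58, 11.12 and 11.17 in AR113Q. The groups overlapped, with a difference of -0.34 (SE 0.19). Slc39a10 (ZIP10), also a plasma membrane importer, read 6.63, 6.22, 6.60 and 6.65 in WT and 5.82, 5.86 and 6.25 in AR113Q. Only WT replicate 2 and AR113Q replicate 3 overlapped, and the difference of -0.55 (SE 0.18) was below the fold limit.

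None of the exporters among the members was called. Slc30a1 (ZnT1) read 5.40, 6.43, 6.03 and 5.60 in WT and 5.74, 6.44 and 5.95 in AR113Q. These ranges lay over each other, with a difference of 0.18 (SE 0.28). Slc30a2 (ZnT2), which loads zinc into vesicles and is known from the lactating mammary gland, read 7.38, 7.72, 7.42 and 7.74 in WT and 6.42, 7.15 and 7.32 in AR113Q. All 3 AR113Q mice were below all WT mice, though the nearest values were only 0.06 apart, and the difference was -0.60 (SE 0.24). Slc30a4 (ZnT4), an exporter of endosomes and vesicles, read 10.56, 10.35, 10.54 and 10.30 in WT and 10.91, 10.41 and 10.50 in AR113Q, with a difference of 0.17 (SE 0.18). AR113Q replicate 1 was the highest and the other AR113Q mice lay within the WT range.

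On slide 2, which held WT replicate 2 and AR113Q replicate 1, the single pair differed by 2.84 for Mt2, by 1.99 and 1.53 for the brighter and dimmer Mt1 probes, and by 3.08 for Slc39a14. For these probes the pair differed in the same direction as the groups and by less. The pair also differed by less than the groups for Slc39a10 (-0.40), and by more, in the same direction, for Slc39a1 (-0.53), Slc30a2 (-1.30) and Slc30a4 (0.56). For Mt3 (-0.41), Mtf1 (0.23) and Slc30a1 (-0.69) the pair differed in the other direction. These pair values rest on 1 mouse of each genotype. In a fit with the slide as a fixed effect 0 of the member probes and 0 of all kept probes were called, with 7927 kept probes at an unadjusted p under 0.05 in limma.

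**Figure D4:**
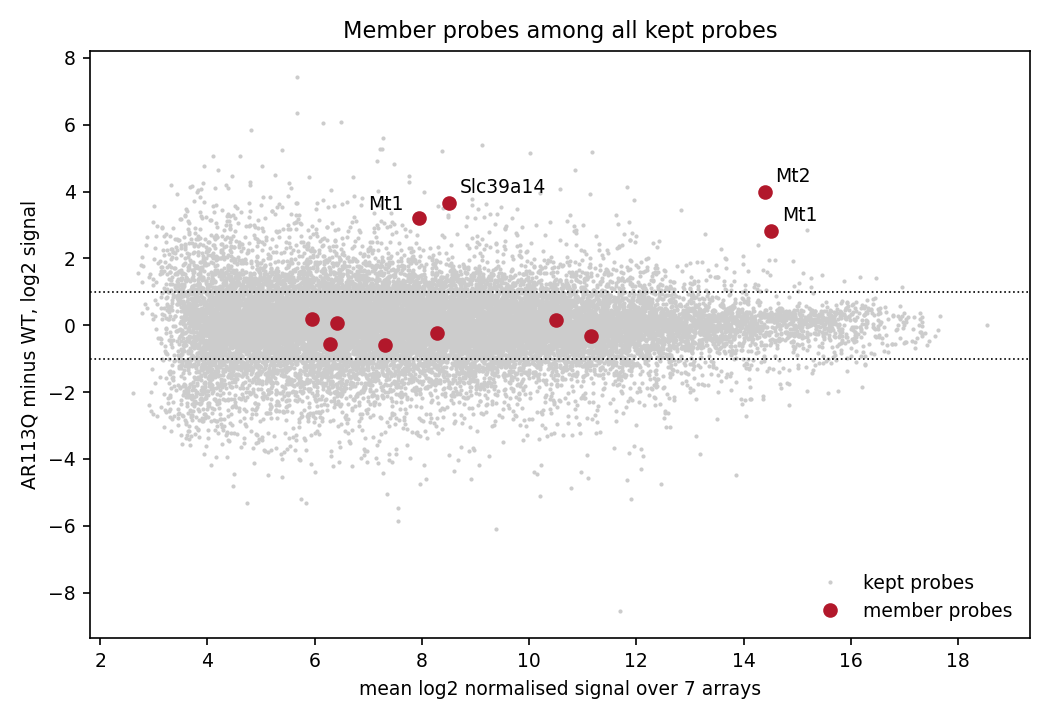
AR113Q minus WT difference in log2 signal against the mean log2 signal over 7 arrays for the 20990 kept probes (grey) and the 11 member probes (red), with dotted lines at a difference of 1 in either direction. Mt1, Mt2 and Slc39a14 lie between 2.82 and 3.99, and the other member probes lie between the dotted lines.

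The whole transporter families were then counted, taking each gene by its brightest kept probe. At that level 24.3% of 16577 genes were called in either direction, 11.2% higher and 13.1% lower. Of the 14 SLC39 genes on the array, 9 were tested, and Slc39a14 was called higher and Slc39a13 lower. Slc39a13 (ZIP13), which moves zinc out of vesicles of the secretory pathway and is known for its part in connective tissue, read 9.44, 9.24, 9.36 and 9.36 in WT and 8.22, 8.37 and 8.44 in AR113Q. Its groups were far apart for their small spread, and the difference of -1.01 (SE 0.14, limma adjusted p = 0.00114) lay at the fold limit. It was called in 11 of 19 alternatives, with differences from -1.05 to -0.76, and not without WT replicate 1 or without AR113Q replicate 1.

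Slc39a7 (ZIP7), the zinc channel of the endoplasmic reticulum, read 12.89, 12.95, 12.82 and 13.04 in WT and 14.03, 13.62 and 13.49 in AR113Q. It was higher in each AR113Q mouse, by 0.79 (SE 0.17, limma adjusted p = 0.00753), which is below the fold limit. For Slc39a3, Slc39a6, Slc39a9 and Slc39a11 the differences were -0.22, 0.36, 0.74 and -0.21, and none passed the limit on the adjusted p. The Slc39a9 probe was dim, well above background on only 1 of 4 WT and 2 of 3 AR113Q arrays. Slc39a2, Slc39a4, Slc39a5, Slc39a8 and Slc39a12 were too dim to be tested. The median difference over the 9 tested SLC39 genes was -0.21, beside -0.01 over all genes.

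Of the 10 SLC30 genes on the array, 7 were tested and Slc30a6 alone was called. Slc30a6 (ZnT6), the partner of ZnT5 in zinc transport into the Golgi, read 6.71, 6.55, 6.75 and 6.99 in WT and 5.09, 4.92 and 4.95 in AR113Q. The difference was -1.76 (SE 0.16, limma adjusted p = 0.000196), with no overlap. It ranged from -1.97 to -0.39 over the alternatives, and the call was lost in the authors' normalised values, after normexp correction and without background subtraction.

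Slc30a5 (ZnT5), whose protein pairs with ZnT6, stood on the other side. It read 7.58, 8.02, 7.66 and 7.49 in WT and 8.43, 8.43 and 8.46 in AR113Q, a difference of 0.75 (SE 0.17, limma adjusted p = 0.00835). Slc30a7 (ZnT7), another transporter of the early secretory pathway, was 0.77 higher (SE 0.20, limma adjusted p = 0.0151). Both were below the fold limit. Slc30a9 differed by -0.01, and Slc30a3, Slc30a8 and Slc30a10 were well above background on none of the arrays. The median difference over the 7 tested SLC30 genes was 0.17.

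**Figure D5:**
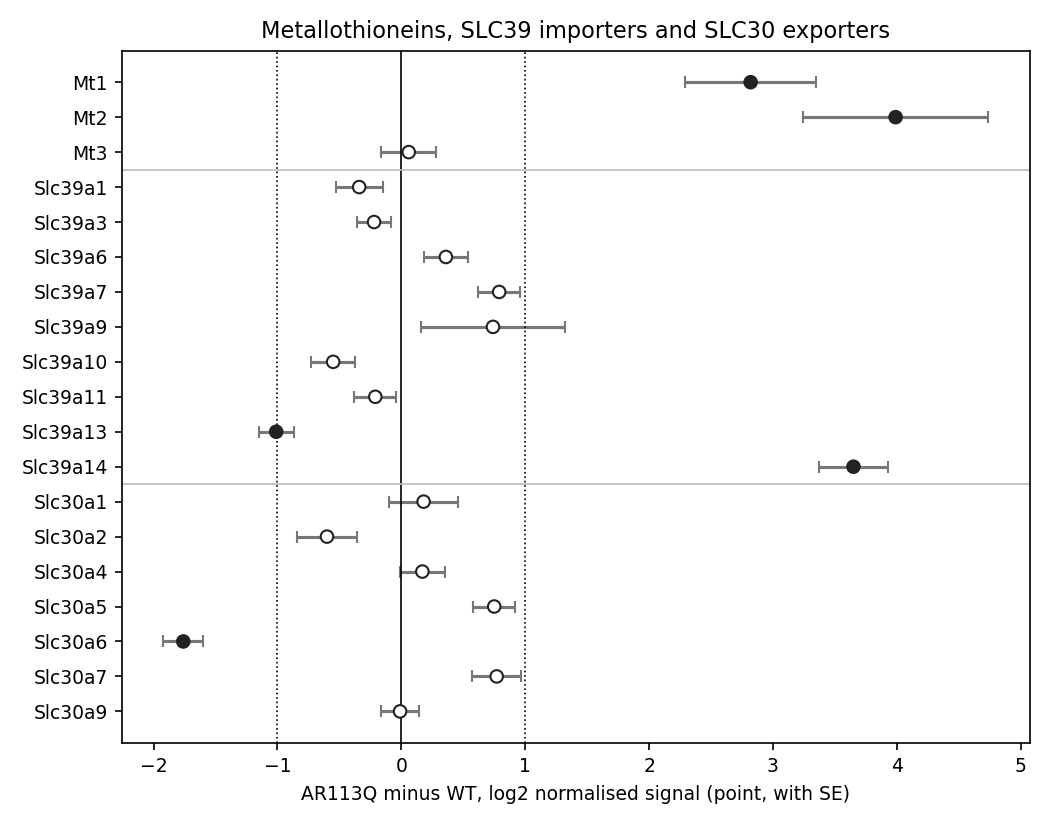
AR113Q minus WT difference in log2 signal with its SE for the 19 tested metallothionein, SLC39 and SLC30 genes, each by its brightest kept probe, with filled points for called genes and dotted lines at a difference of 1 in either direction. Mt1, Mt2 and Slc39a14 lie far to the right, and Slc39a13 and Slc30a6 are filled on the left.

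Other metals were looked at because ZIP14 also carries iron and manganese and metallothioneins also bind copper. Of 21 tested genes of iron and manganese handling, 2 were called higher and 7 lower, beside 11.2% and 13.1% of all genes, with a median difference of -0.33. The count of 9 was 4 after normexp correction, in the authors' values and from mean spot intensity. The probes named Ftl1, Ncoa4 and Iscu, none of them called, are placed by the files on other chromosomes than RefSeq gives for these genes. The largest decrease was in Tfrc, the transferrin receptor through which cells take up iron, at -3.65 (SE 0.37, limma adjusted p = 0.00031), from 10.30 ± 0.50 (SD, n = 4) to 6.65 ± 0.69 (SD, n = 3). Over the alternatives the Tfrc difference ranged from -3.93 to -2.28. Of the genes called higher, Slc25a28, a mitochondrial iron importer, was 1.34 higher (SE 0.15, limma adjusted p = 0.000449). Ireb2, an iron-regulatory protein that stabilises the Tfrc message, was well above background on 0 of the 4 WT arrays and on all 3 AR113Q arrays, so it passed the filter only through AR113Q. It is counted among the 2 called higher, but only a bound of at least 1.64-fold is given for it, and after normexp correction and from mean spot intensity it was not called. Of the 10 tested genes of copper handling none was called, with differences between -0.84 and 0.52. Of those 10, 3 had an unadjusted p under 0.05 and 2 an adjusted p of at most 0.05 in limma.

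Genes of the pathways that are known to act on metallothionein genes were counted as well. Of 8 glucocorticoid-induced genes, 4 were called higher and none lower, beside 11.2% and 13.1% of all genes, with a median of 1.19, and Fkbp5, a cochaperone of the glucocorticoid receptor, had the largest increase of 1.65 (SE 0.42, limma adjusted p = 0.0134). The differences in this list ran from -0.64 to 1.65, and on slide 2 the single pair differed by 0.44 for Fkbp5. When 1 array was left out the count was 3, except that it stayed at 4 without WT replicate 2. One of the called genes, Ddit4, was called in only 9 of 19 alternatives. Of 8 tested genes of the IL6-STAT3 pathway, 4 were called higher and 1 lower. Lcn2, which encodes the acute-phase protein lipocalin 2, had the largest increase of 5.17 (SE 0.65, limma adjusted p = 0.000671), and Lifr, a receptor subunit for leukaemia inhibitory factor, the largest decrease of -1.42 (SE 0.17, limma adjusted p = 0.000601). Of 7 tested NRF2 target genes none was called, their differences ran from -0.43 to 0.99, and 4 had an unadjusted p under 0.05 in limma. Without WT replicate 4 or without AR113Q replicate 3, 1 of them was called higher. These lists were chosen with earlier results of these arrays known.

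The genes whose pattern over the 7 arrays was closest to each of the 3 leading genes were found by the root mean square difference in log2 signal after each probe's own mean was subtracted. For Mt2, after a transcript without a gene symbol (0.19), these were Clec4d (0.491), a lectin receptor of myeloid cells, and Mt1 (0.674). For Mt1 the nearest was Cep126 (0.328), a centrosomal protein, followed by a pair of transcripts without a symbol (0.356 and 0.392). For Slc39a14 they were Gm38958 (0.224), Gm15441 (0.25) and a transcript without a symbol (0.275). All of them were also higher in AR113Q, by 2.19 to 4.13 on the log2 scale, so the likeness includes the difference between the genotypes.

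Markers of other cell types in the muscle moved too, and in bulk tissue fewer cells of a type and less RNA per cell cannot be told apart. The summed linear signals given here are set mostly by the brightest probes of each list. The counts stand beside 11.2% of all genes called higher and 13.1% lower. Of 6 adipocyte markers 4 were called lower, with a summed linear signal of 59400 to 100000 in WT and 37700 to 45600 in AR113Q. The adipocyte count was 3 without WT replicate 1, 2 or 4 and without AR113Q replicate 1 or 2. Of 6 fibroblast markers 3 were called lower (92700 to 110000 and 75100 to 106000), Col1a1, Col1a2 and Lum, whereas the bright Dcn differed by 0.41 (SE 0.16) and was not called. Of 7 macrophage markers 1 was called higher and 2 lower (7870 to 13900 and 5880 to 8540), though 1 and 1 without WT replicate 1 and 0 and 3 without AR113Q replicate 2. None of the 4 tested neutrophil markers was called in the main comparison (8940 to 17000 and 10200 to 14400), Mpo was never well above background and Ly6g was not on the array. The flat and bright probe named Csf3r lies on chromosome 19 in the files, whereas RefSeq has the gene on chromosome 4, so it is not read as a neutrophil marker. Without it the summed signal ran from 109 to 9040 in WT and from 1090 to 2480 in AR113Q. WT replicate 4, the WT mouse with the highest Mt1 and Mt2, stood apart in these markers. S100a8 read 4.37, 5.02, 4.33 and 10.21 in WT and 9.52, 8.58 and 9.92 in AR113Q. S100a9 read 7.21, 7.48, 6.43 and 12.93 in WT and 8.43, 10.50 and 10.54 in AR113Q. Without WT replicate 4, S100a8 and S100a9 were called higher, by 4.77 and 2.78. S100a8 was called in 3 of 19 alternatives, among them an intensity trend in the variance model, which used all 7 arrays. Cxcr2 was well above background in WT replicate 4 alone among the WT mice and in 2 AR113Q mice, so its difference is not given. The differences of Mt2 and the brighter Mt1 probe without that mouse were 4.63 and 3.24. None of the 6 endothelial markers (2370 to 2680 and 2100 to 2870) or of the 4 tested erythrocyte markers (44400 to 214000 and 45200 to 57700) was called either. At an unadjusted p under 0.05 in limma there were 1 neutrophil, 2 endothelial and 1 erythrocyte marker. Without WT replicate 2, 1 erythrocyte marker was called lower. All 4 erythrocyte markers were highest in WT replicate 4 and next in WT replicate 3, as for Hba-a1, a haemoglobin chain, at 15.38, 15.40, 16.80 and 17.60 in WT and 15.75, 15.40 and 15.70 in AR113Q. The part of these cell types in the differences of Mt1, Mt2 and Slc39a14 was not tested.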

How the data were processed

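Total RNA of 7 quadriceps samples (4 WT, 3 AR113Q) was labelled with Cy3 and hybridised by the authors to Agilent 4x44K mouse arrays, and the deposited scanner files of Agilent Feature Extraction 10.7.3.1 (per the submitters' processing notes) hold spot intensities with probe positions on mm9. The authors also deposited a table of quantile normalised log2 values for 18592 probes, used here only as an alternative, since its filter and background handling are not given in the sources used here.

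The member genes, the gene lists and the tests were chosen with earlier results of these data known. Processed intensities were taken to log2 after outlier spots (94 to 151 per array) were left out, quantile normalised over 43020 non-control spots and averaged per probe. Probes had to be well above background on 3 or more arrays to be kept. Probes were named by RefSeq accession on GRCm38.p6 (28330 of 39429 matched) and otherwise by the file's symbol. AR113Q was tested against WT by lmFit and eBayes of limma 3.58.1 (R 4.3.3), without covariates and with Benjamini-Hochberg adjustment over all kept probes. For counts of genes, the brightest kept probe stood for the gene. Arrays of 20990 probes were simulated with the spread of the real ones, independent noise and no slide effect, and 100 probes were changed at each size. Of these, 86% of 4-fold and 100% of 16-fold changes were called, with 7 false calls. In the data 24.8% of kept probes were called, so these shares need not hold there. The number of arrays limits the precision, and p-values measure the spread between these mice. Named in the text were every probe of the members, every gene of the Mt, SLC39 and SLC30 families, the called genes with the largest increase and decrease of each metal or pathway list, and the 3 genes closest in pattern to Mt1, Mt2 and Slc39a14; Slc25a28, Ddit4, Stat3, Srxn1, Tie1, Ckm, Acta1, Myh2, Myh7, Hba-a1, Dcn, Col1a1, Col1a2, Lum, Ftl1, Ncoa4, Iscu and the neutrophil markers were added after their values were seen. The gene targeted by the knock-in is not reported here. Cores of metal response elements were searched with overlapping matches counted separately. Alternatives were another scaling, background correction, filter, variance model, slide and replicate terms, and leaving out each array.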

Additional observations from a re-analysis of the deposited data

Results flagged for a closer look

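For Slc39a10, the WT replicate 2 value of 6.22 lay apart from the other WT mice, which read 6.60 to 6.65. Its gap to the nearest of them was 0.876 of the group's range, above Dixon's critical value for 4 samples. Of the 13 member probes tested in this way it was the only one past that value, and chance gives about 1 in 20. WT replicate 2 is also the WT value that overlapped with AR113Q in this gene.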

How the results depend on the processing

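Over 19 alternatives, the differences of Mt2, both Mt1 probes and Slc39a14 kept their sign: Mt2 ranged from 2.84 to 4.63, the brighter Mt1 probe from 1.99 to 3.24, the dimmer one from 1.53 to 3.89 and Slc39a14 from 2.66 to 3.84. Values near 0 changed sign for Mt3, Mtf1 and Slc30a1. With the slide as a fixed effect, 0 probes were called in all, 0 member probes, 0 member genes, and 0 genes of the SLC39 family, the SLC30 family and the iron and manganese list; only slide 2 then bears on the genotypes. Probes called in all were 5207, but 2075 after normexp correction, 1592 in the authors' values, 2264 from mean spot intensity (an alternative chosen after seeing the data) and 9198 with no fold limit. The SLC39 count of 2 was 1 after 75th percentile scaling, normexp, in the authors' values, with array weights and from mean spot intensity, and 4 with no fold limit. The SLC30 count of 1 was 0 after normexp, in the authors' values and from mean spot intensity, and 3 with no fold limit. The iron and manganese count of 9 was 4 in the same 3 settings and 14 with no fold limit, and the copper count of 0 was 2 with no fold limit. The cause was not tested. Leaving out each array gave 4453 to 5562 probes in all, 3 to 4 member probes, 3 to 3 member genes, 1 to 2 SLC39 genes (1 without WT replicate 1 and without AR113Q replicate 1), 1 to 1 SLC30 gene, 8 to 10 iron and manganese genes and 0 to 1 copper genes (1 without AR113Q replicate 1). The replicate numbers were not taken to pair the mice. Deviations of same-numbered mice correlated at 0.0407, -0.0161 and 0.156, and those of differently numbered mice at -0.171 to 0.118. With the replicate block, 5189 probes and 4 member probes were called. Signal over background limits the dim probes: the 2 Mtf1 probes that were not kept have no level.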
